A study of Rattus norvegicus with 28 samples.

Results

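The nuclear genes that encode the mitochondrial respiratory chain and ATP synthase were followed in rat spinal cord after a contusion and after cell transplantation. Members were all array features whose gene name begins with Nduf, Uqcr, Cox4 to Cox8 or Atp5, or is Sdha, Sdhb, Sdhc or Sdhd, which gave 84 genes of 35469 named features, read by 106 probes. The rule used the names alone and no measured value. By name, 35 members were complex I subunits, 4 complex I assembly factors, 4 complex II subunits, 7 complex III, 15 complex IV and 15 complex V, and 4 others share the letters of these names.

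All animals were adult female Sprague Dawley rats. The uninjured group T0, called sham in the sample labels, was compared with rats taken 1 week (T1), 2 weeks (T2), 4 weeks (T4) and 8 weeks (T8) after a 250 kdyn contusion at the eighth thoracic vertebra. In T1_NPC and T2_NPC, neural progenitor cells (NPC), grown from adult spinal cord, were injected either right after the contusion or 1 week later. The cord was taken at 1 week and 2 weeks. Each group held 4 arrays, and each array read the total RNA of a 1.5 cm segment around the lesion. The study's methods list the immunosuppressant FK-506 (tacrolimus), dated from the eve of transplantation onwards, in the care of all animals, and cell-free medium for injured controls. When animals without a transplantation began the drug is not stated there.

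Oxidative phosphorylation passes electrons from NADH (complex I) and succinate (complex II) through ubiquinone to complex III, then by cytochrome c to complex IV, where oxygen is reduced. Complexes I, III and IV pump protons across the inner mitochondrial membrane, and complex V, the ATP synthase, uses the gradient to make ATP. Neurons depend heavily on this pathway to restore ion gradients after firing. A small core of subunits is encoded by mitochondrial DNA. Most members are nuclear-encoded subunits, several of which exist as tissue-specific isoforms, and the rest include assembly factors and genes that share only the name. The mitochondrially encoded genes, none of which was found by name among the features, are not analysed here.

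A value is the base-2 logarithm of quantile-normalized probe signal, averaged over spots and then probes of a gene. Because the scale differs between probes, levels are compared between arrays and never between genes. A member was called where limma gave an adjusted p under 0.05, with Benjamini-Hochberg adjustment over all 35469 features and 1 estimate of the spread from all 28 arrays. Each array was 1 animal as far as the labels say. Of the members, 80 were well above background on all 28 arrays, Cox6c1 on 27, Ndufaf2 on 20 and Uqcrq and Cox8c on 2 each.

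The labels of 16 arrays disagreed between the deposited value table and the scanner outputs: the scanner output filed under a sample matched the table column of a different sample in rank order (rho = 1 with that column, at most 0.993 with the next). The columns of the value table were used throughout, and 12 arrays carried the same sample in both. When every scanner output was instead taken under the sample it was filed with, no member passed the threshold in any comparison with T0 or between transplanted and injured groups, and of all 35469 features 0, 1, 0 and 0 passed against T0 and 0 and 46 in T1_NPC and T2_NPC. Members with an unadjusted p under 0.05 then numbered 1, 1, 30 and 18 at T1, T2, T4 and T8 (6.84%, 4.58%, 23.7% and 14% of all features) and 2 and 20 in T1_NPC and T2_NPC (2.46% and 14.1%). Grouped by the value table, the macrophage scavenger receptor Msr1 read 1.45 to 3.88 at T0 and 8.54 to 12.07 on the 16 injured arrays without cells. Grouped by the filed outputs it read 1.45 to 11.07 at T0, and 1.61 to 12.46 and 3.88 to 10.04 at T1 and T2. Every direction below is that of the value table. With the 12 arrays free of conflict alone, 60 and 62 members were lower than T0 at T2 and T8 (18.7% and 19.7% of all features). T0, T2 and T8 then kept 2 arrays each. T1 and T4 kept 1 array each, with a median change of the members from T0 of -0.51 and -0.44. Apart from T2_NPC, these 12 arrays are all those of a single scan session, named session 1 below, so the 2 settings are not separate checks.

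Promoter sequence, read in the direction of the gene, was available from RefSeq (GRCr8) for 72 members. The sequences below are the 250 bases before the annotated start of 4 members whose window holds no other gene record. These members were picked after their values were seen. The gap between the head-to-head genes Cox4i1 and Cox4nb, a pair with unlike calls, follows, and the difference between their changes was not tested. Capitals mark matches to motifs of 2 factors known as regulators of respiratory chain genes, GCGCA, any base and then GCGC for nuclear respiratory factor 1 (NRF1) and CCGGAAGT for GABP, searched on both strands.
Ndufs4, chr2:47794915-47795164, minus strand, no match: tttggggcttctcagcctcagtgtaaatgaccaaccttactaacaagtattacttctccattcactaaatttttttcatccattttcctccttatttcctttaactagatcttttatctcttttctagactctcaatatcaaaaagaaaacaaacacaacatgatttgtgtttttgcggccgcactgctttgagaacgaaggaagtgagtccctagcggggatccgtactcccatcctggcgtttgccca
Ndufs1, chr9:72073606-72073855, minus strand, GABP match beginning 200 bases before the start: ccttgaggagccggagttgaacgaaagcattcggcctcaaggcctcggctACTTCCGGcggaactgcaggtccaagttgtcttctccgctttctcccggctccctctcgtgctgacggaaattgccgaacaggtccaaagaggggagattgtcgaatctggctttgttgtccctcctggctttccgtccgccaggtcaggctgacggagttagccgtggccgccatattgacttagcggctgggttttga
Ndufa5, chr4:53971236-53971485, minus strand, NRF1 match beginning 32 bases before the start: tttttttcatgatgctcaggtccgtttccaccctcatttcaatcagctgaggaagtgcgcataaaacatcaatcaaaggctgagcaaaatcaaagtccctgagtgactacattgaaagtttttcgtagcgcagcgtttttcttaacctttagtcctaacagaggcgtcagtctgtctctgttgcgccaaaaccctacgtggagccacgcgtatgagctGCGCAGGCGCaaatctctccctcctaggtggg
Uqcrc1, chr8:118467973-118468222, plus strand, NRF1 match beginning 64 bases before the start: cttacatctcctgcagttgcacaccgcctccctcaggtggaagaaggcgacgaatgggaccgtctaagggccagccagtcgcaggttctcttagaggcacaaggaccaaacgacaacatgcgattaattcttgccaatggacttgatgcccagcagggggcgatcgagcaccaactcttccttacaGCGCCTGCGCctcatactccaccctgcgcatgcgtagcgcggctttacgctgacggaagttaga
Cox4i1 and Cox4nb, chr19:65630329-65630382, the 54 bases between their starts, plus strand, no match: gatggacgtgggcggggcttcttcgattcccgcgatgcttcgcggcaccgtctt

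The NRF1 motif occurred in 12 of the 72 member promoters (16.7%) and in 3.75% of all 33469 promoters of the same length. The GABP motif occurred in 8 member promoters (11.1%) against 3.1% of all. The motifs searched for YY1 (AAGATGGCG) and the oestrogen-related receptors (TCAAGGTCA) each occurred in 1 member promoter (1.39%, against 0.693% and 0.388% of all), and CCAAT, the motif of NF-Y, in 23 (31.9% against 34% of all). Members with the NRF1 motif had a median log2 change against T0, averaged over the 4 time points, of -0.56, and those without it -0.51. These medians were -0.68 with and -0.51 without the GABP motif. A match describes letters in a window and not a bound site.

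At every time point after injury most respiratory chain genes were lower than in uninjured cord. Lower values were called for 64 of 84 members at T1 (background over all features 25.1%), 66 at T2 (22.2%), 63 at T4 (21%) and 60 at T8 (21.5%). A single member, Cox6b2, was higher at T1, T2 and T8 (background 19.1%, 17.7% and 18.2%), and none was higher at T4 (17.5%). The median log2 fold change of the members was -0.53, -0.50, -0.53 and -0.47, which is -30.6%, -29.5%, -30.9% and -27.9% on the linear scale. The median of all features was -0.10, -0.06, -0.06 and -0.04. At all 4 times 56 members were lower (66.7%, against 15.9% of all features). The 4 comparisons share the T0 arrays. In whole tissue, fewer cells of a type and less RNA per cell cannot be told apart.

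The shift was seen on each injured array. Relative to the member means of T0, the median over the 84 members was -0.13 to 0.14 on the T0 arrays, -0.66 to -0.38 at T1, -0.68 to -0.32 at T2, -0.62 to -0.37 at T4 and -0.58 to -0.42 at T8. No injured array reached the lowest T0 array. All 4 injured arrays of a group lay below all 4 T0 arrays for 53, 55, 55 and 58 members (background 23.6%, 20.5%, 21.1% and 21.3%). The scanner files place the time-course arrays in 2 scan sessions, and those of session 1, which held only 1 array each of T1 and T4, had the higher median in every group. Compared within session 1 the median change was -0.51, -0.47, -0.44 and -0.52, and within session 2 it was -0.44, -0.58, -0.46 and -0.47, with 75 to 80 of 84 members below 0 in each.

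**Figure D1:**
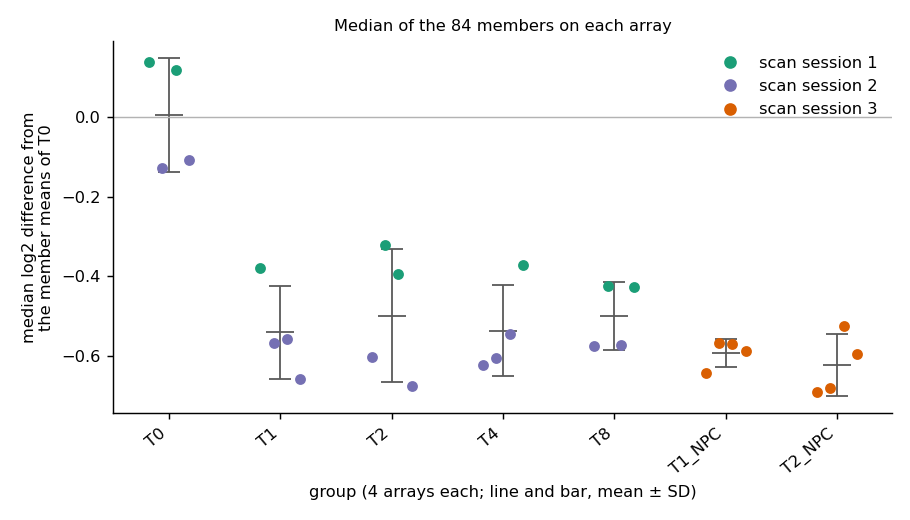
Median over the 84 respiratory chain genes of the log2 difference from the T0 means (y axis) on each array, by group (x axis), coloured by scan session, with the mean and SD of 4 arrays. All T0 arrays lie between -0.13 and 0.14, and all arrays of the other groups lie at or below -0.32.

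**Figure D2:**
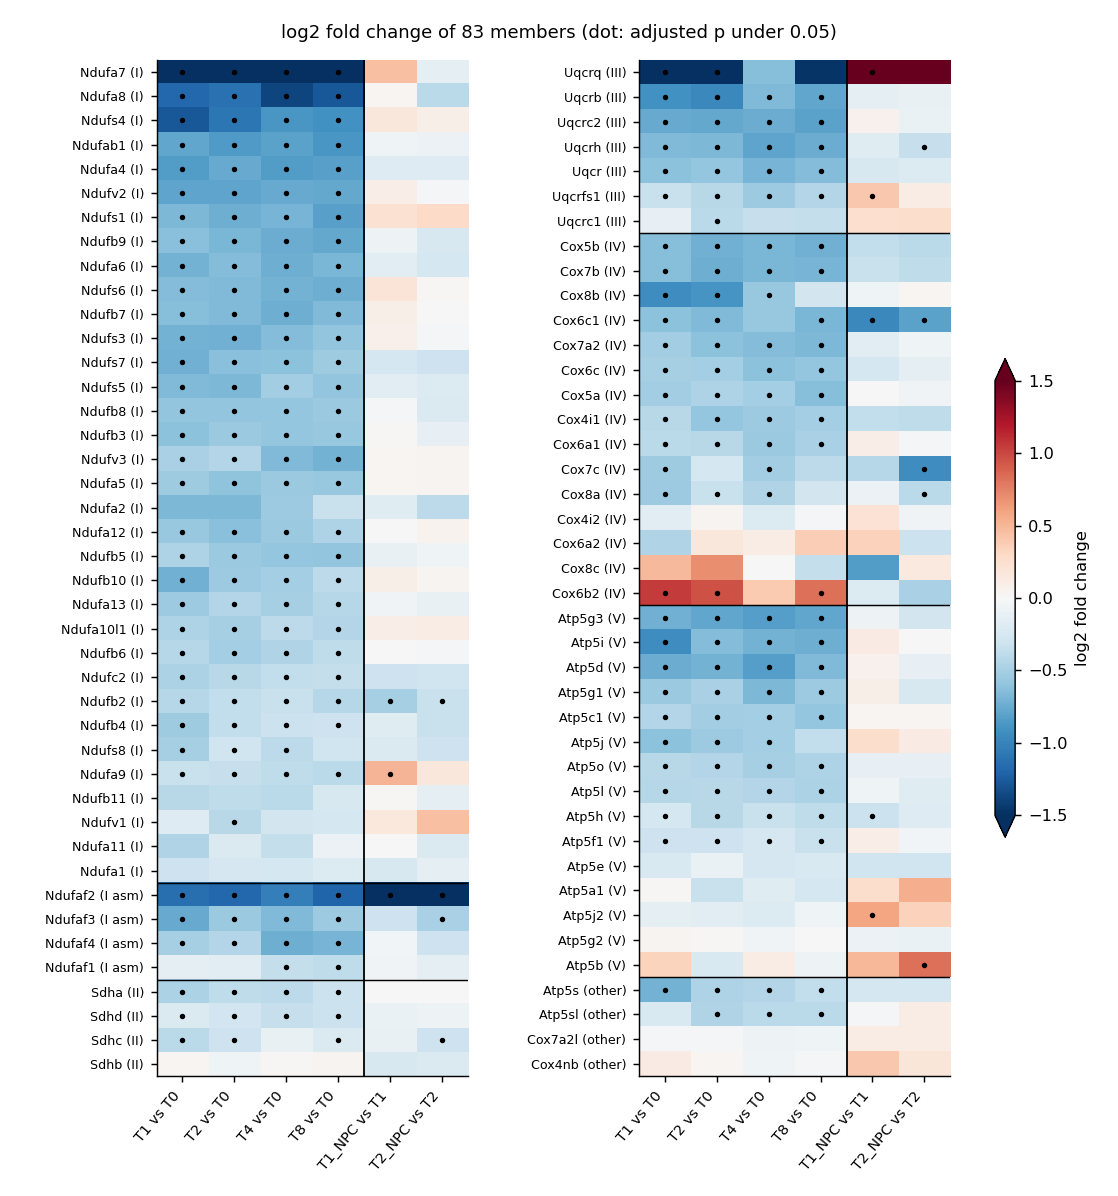
Log2 fold change (colour, limited at 1.5 either way) of 83 of the 84 genes, each with its class in brackets, in 4 comparisons with T0 and 2 of transplanted against injured groups; dots mark an adjusted p under 0.05. The comparisons with T0 are mostly blue, with 59 to 65 of the plotted genes called lower, and those of transplantation hold 8 and 9 dots.

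Complex I, the largest class, was lower in most of its subunits. Of its 35 subunits 30, 31, 30 and 29 were lower at T1, T2, T4 and T8, 29 of them at all 4 times, and all 35 fold changes were below 0 at each time. The median change was -0.62, -0.60, -0.58 and -0.57. The 3 complex I subunits with the lowest mean change were Ndufa7, Ndufa8 and Ndufs4, all accessory subunits around the catalytic core. Among the subunits, 4 were never called (Ndufa1, Ndufa2, Ndufa11 and Ndufb11).

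For Ndufa7 the T0 arrays read 12.52, 12.44, 12.54 and 11.92. The injured arrays read 10.62, 10.22, 10.94 and 10.03 in T1, 10.88, 10.79, 10.62 and 9.97 in T2, 10.32, 10.84, 10.67 and 10.72 in T4, and 11.10, 10.51, 10.54 and 10.65 in T8. Every injured array was lower than every T0 array, and the time points overlapped each other. The log2 fold change was -1.90, -1.79, -1.71 and -1.65 (SE 0.23), with adjusted p = 4.7e-07, 1.38e-06, 2.99e-06 and 3.91e-06.

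Ndufs4, whose loss causes a Leigh-like encephalopathy in mice, read 9.74, 9.45, 9.77 and 9.35 at T0. It read 8.42, 8.24, 8.34 and 8.23 in T1, 8.38, 8.55, 8.68 and 8.34 in T2, 8.75, 8.72, 8.71 and 8.62 in T4, and 8.66, 8.70, 8.69 and 8.61 in T8. All injured arrays lay below T0, and the T8 arrays lay above all T1 arrays. The log2 fold change was -1.27, -1.09, -0.88 and -0.91 (SE 0.13; adjusted p = 2.02e-08, 2.76e-07, 6.18e-06 and 3.07e-06), while the step from T1 to T8 of 0.36 was not called (adjusted p = 0.0784). Its promoter window, printed above, held neither motif.

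Ndufa8 fell with changes of -1.18, -1.12, -1.38 and -1.27 (SE 0.26; adjusted p = 0.000628, 0.00114, 0.000155 and 0.000326). Its T0 arrays read 14.91, 13.96, 14.90 and 14.36, and the 2 arrays of session 1 were the brighter ones. One T2 array, at 13.96, reached the lowest T0 value. Compared within a single session, its changes lay between -1.39 and -0.98.

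Within the catalytic core of complex I, the calls of Ndufs1 and Ndufv1 differed, and the difference between these genes was not tested. Ndufs1, the iron-sulphur subunit whose window holds a GABP match, fell with changes of -0.67, -0.73, -0.70 and -0.81 (SE 0.16; adjusted p = 0.00132, 0.000686, 0.00116 and 0.000234). Ndufv1, the flavin-binding subunit that accepts electrons from NADH, was called at T2 alone, with changes of -0.20, -0.42, -0.28 and -0.27 (SE 0.15; adjusted p = 0.313, 0.0308, 0.163 and 0.171), and the T2 call was lost without T0 array 2 or 4 or T2 array 1. The T0 arrays of session 1 both read 12.76 and those of session 2 read 13.32 and 13.37, and its changes were -0.02, -0.09, -0.22 and -0.15 within session 1 and -0.45, -0.75, -0.49 and -0.39 within session 2. Ndufa5, whose window holds an NRF1 match, fell with changes of -0.54, -0.60, -0.55 and -0.57 (SE 0.11; adjusted p from 6.98e-05 to 0.00024). At the top of the complex I ranking, Ndufa1 changed by -0.31, -0.25, -0.26 and -0.21 and Ndufa11 by -0.45, -0.22, -0.35 and -0.09, none of them called.

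Complex I assembly factors, which build the complex and are not part of it, were lower as well. Of 4, 3 were lower at T1 and T2 and all 4 at T4 and T8. Ndufaf2 read 7.05, 6.98, 7.08 and 7.11 at T0 and between 5.31 and 6.40 on the 16 injured arrays without cells, with no overlap. Its log2 fold change was -1.13, -1.18, -1.02 and -1.20 (SE 0.25; adjusted p = 0.000674, 0.000507, 0.00209 and 0.000424). Ndufaf3 fell with changes of -0.75, -0.56, -0.66 and -0.55 and Ndufaf4 with changes of -0.50, -0.44, -0.73 and -0.69, while Ndufaf1 was called at T4 and T8 (-0.36 and -0.38, adjusted p = 0.0489 and 0.0345; -0.13 and -0.16 at T1 and T2). The T4 call of Ndufaf1 was lost in 22 of 28 fits that left out 1 array, and the T8 call without T0 array 1 or 3 or T8 array 1, 3 or 4. The 3 Ndufaf4 probes moved by unequal amounts, 2 of them with changes of -0.56 to -0.97 and the brightest with -0.14 to -0.27.

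Complex II, the only chain complex that is also an enzyme of the tricarboxylic acid (TCA) cycle, showed smaller changes. The median was -0.31, -0.30, -0.23 and -0.27, and 3, 3, 2 and 3 of 4 subunits were lower. Sdha, the flavoprotein that oxidizes succinate, read 16.23, 16.23, 16.13 and 16.24 at T0. It read 15.61, 15.70, 15.85 and 15.78 in T1, 15.90, 15.77, 15.77 and 15.85 in T2, 15.84, 15.83, 15.83 and 15.77 in T4, and 15.94, 15.84, 15.98 and 15.79 in T8. The T0 arrays were tight and above every injured array, and the fold change was -0.47, -0.39, -0.39 and -0.32 (SE 0.08; adjusted p = 2.69e-05, 0.000298, 0.00031 and 0.00187).

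Sdhb, the iron-sulphur subunit that works next to Sdha, read 14.88, 14.58, 14.81 and 14.66 at T0. It read 14.98, 14.82, 14.49 and 14.74 in T1, 14.41, 14.90, 14.85 and 14.50 in T2, 14.70, 14.72, 14.65 and 14.91 in T4, and 14.63, 14.87, 14.74 and 14.85 in T8. These arrays overlapped T0 throughout, and the changes of 0.02, -0.07, 0.01 and 0.04 (SE 0.13) had adjusted p of 0.914, 0.74, 0.961 and 0.864. The membrane anchor Sdhc was lower at T1, T2 and T8 (-0.40, -0.31 and -0.22, SE 0.09; adjusted p = 0.000523, 0.00494 and 0.0439) with -0.11 at T4 (adjusted p = 0.339). Sdhd, the other anchor, fell with changes of -0.21, -0.28, -0.35 and -0.32 (SE 0.08; adjusted p = 0.0265, 0.00402, 0.000779 and 0.00155). The T1 call of Sdhd was lost without T0 array 1 or 3 or T1 array 2 or 4, and the T8 call of Sdhc without any T0 array, T1 array 2 or T8 array 1 or 4. At T1, T2 and T8, 3 of 4 subunits thus fell while Sdhb had no called change, and the difference between them was not tested.

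In complex III, which passes electrons from ubiquinol to cytochrome c, 6, 7, 5 and 5 of 7 members were lower, with medians of -0.66, -0.68, -0.67 and -0.74. Uqcrc2, one of the core proteins, read 14.68, 14.46, 14.53 and 14.47 at T0. It read 13.75, 13.79, 13.85 and 13.75 in T1, 13.60, 13.87, 13.81 and 13.81 in T2, 13.81, 13.80, 13.81 and 13.76 in T4, and 13.78, 13.64, 13.87 and 13.65 in T8. The groups were separated by a wide gap and the injured groups coincided. The fold change was -0.75, -0.76, -0.74 and -0.80 (SE 0.08; adjusted p = 1.02e-07, 1.07e-07, 2.19e-07 and 5.13e-08).

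Its partner Uqcrc1, whose promoter carries the NRF1 match printed above, was called at T2 alone, with -0.13, -0.40, -0.34 and -0.35 (SE 0.15; adjusted p = 0.525, 0.0319, 0.0732 and 0.0614), and that call was lost without T0 array 2 or 4 or T2 array 1 or 4. The Rieske iron-sulphur protein Uqcrfs1 fell with changes of -0.33, -0.42, -0.54 and -0.44 (SE 0.12; adjusted p = 0.0343, 0.00871, 0.00118 and 0.00561), and the small subunit Uqcr (now Uqcr11) with -0.61, -0.58, -0.69 and -0.65. The T1 call of Uqcrfs1 was lost without T0 array 1 or 3 or T1 array 2 or 3. Uqcrb, a small subunit near the ubiquinone site, fell with changes of -0.91, -0.96, -0.67 and -0.78 (SE 0.13; adjusted p = 7.09e-06, 3.84e-06, 0.000335 and 5.1e-05). Its 4 probes all had values below 0, but their size ran from -0.13 to -1.93, the brighter 2 probes moving least. Uqcrq was counted lower at T1 and T2, but its probe was not well above background on any array of T0, T1 or T2. No fold is therefore given, and the direction rests on background signal.

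Complex IV, cytochrome c oxidase, had 11, 10, 10 and 8 of 15 members lower, 7 at all 4 times, and a median of -0.52, -0.46, -0.55 and -0.48. Cox5b, among the 3 lowest of the complex, fell with changes of -0.64, -0.72, -0.69 and -0.72 (SE 0.15; adjusted p = 0.00129, 0.000495, 0.000833 and 0.000467), and Cox7b fell with changes of -0.64, -0.74, -0.68 and -0.70 (adjusted p from 0.00305 to 0.00774). The widely used isoform Cox4i1 read 14.97, 14.63, 14.86 and 14.58 at T0. It read 14.54, 14.28, 14.34 and 14.21 in T1, 13.93, 14.33, 14.39 and 14.07 in T2, 14.21, 14.17, 14.19 and 14.26 in T4, and 14.12, 14.33, 14.31 and 14.25 in T8. All injured arrays were lower than T0, by -0.42, -0.58, -0.55 and -0.51 on average (SE 0.13; adjusted p = 0.0108, 0.000844, 0.00145 and 0.0028).

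Cox4i1 lies head to head with Cox4nb (now Emc8, a subunit of a protein complex of the endoplasmic reticulum), which the naming rule picked up and which is no part of the chain. The gap between them is the last of the sequences printed above. Cox4nb read 11.91, 11.71, 12.08 and 11.76 at T0. It read 12.23, 11.91, 11.88 and 11.94 at T1 and between 11.64 and 12.09 on the 12 later arrays without cells. The groups overlapped, and its changes of 0.12, 0.03, -0.06 and -0.01 (SE 0.17; adjusted p 0.611 to 0.967) were not called.

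Cox6b2, known as a testis isoform, was the only member called higher. It read 7.51, 6.71, 7.19 and 7.07 at T0. At T1 it read 8.88, 8.47, 7.62 and 7.69, and a week later 7.74, 8.26, 8.47 and 7.82. The T4 arrays read 7.68, 7.43, 6.80 and 8.12 and the T8 arrays 7.56, 8.37, 7.54 and 8.29. The T1, T2 and T8 arrays all exceeded T0, and the T4 arrays straddled it. The fold change was 1.05, 0.96, 0.39 and 0.82 (SE 0.31; adjusted p = 0.00761, 0.0154, 0.352 and 0.0366), and within sessions 1 and 2 it lay between 0.42 and 1.53. The T2 call was lost without T0 array 2 or T2 array 3, and the T8 call without T0 array 2, 3 or 4 or T8 array 2 or 4.

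Of 6 pairs of a common and a restricted isoform of complex I or IV, both genes were present for 3, and the within-array difference was compared by an exact two-sided permutation test, 18 tests in all. None passed after adjustment over the 18, the lowest p that 4 against 4 arrays allow being 0.0286 and the lowest adjusted p 0.0735. With the brightest probe of each gene 11 passed, with a lowest adjusted p of 0.0468. Among these genes only Cox8b has more than 1 probe, so the other 2 pairs had the same values and unadjusted p in both runs. They passed because more tests then shared the lowest possible p, which lowers its adjusted value. The switch is therefore no added evidence for those 2 pairs. The difference Cox4i2 minus Cox4i1 was higher than at T0 by 0.26, 0.62, 0.34 and 0.47 at the 4 times (unadjusted p = 0.0286 each). Cox6a2, the heart and skeletal muscle isoform, minus Cox6a1 changed by -0.04, 0.58, 0.67 and 0.86 (unadjusted p = 0.971, 0.0286, 0.0286 and 0.0286). Neither restricted gene was itself called at any time (Cox4i2 -0.21 to 0.05, Cox6a2 -0.45 to 0.37), and Cox6a1 fell at each time (-0.41 to -0.56). In the third pair, with the Cox8b probes averaged, Cox8b minus Cox8a changed from T0 by -0.38, -0.56, -0.12 and -0.0013. Its lowest unadjusted p at these times was 0.114. Cox8c, a testis isoform, was above background on 2 arrays and was not called.

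Complex V, the ATP synthase, had 10, 10, 10 and 9 of 15 members lower, with medians of -0.42, -0.42, -0.44 and -0.38. The lowest were Atp5i (now Atp5me), Atp5g3 (now Atp5mc3, one of 3 genes for the rotating c ring) and Atp5d (now Atp5f1d, in the central stalk). Atp5i read 18.08, 17.93, 18.01 and 17.81 at T0. It read 17.18, 16.98, 17.06 and 16.89 in T1, 17.53, 17.40, 17.29 and 17.01 in T2, 17.21, 17.10, 17.16 and 17.53 in T4, and 17.01, 17.49, 17.14 and 17.26 in T8. All injured arrays were lower than T0, and T1 was lowest on average with a change of -0.93, against -0.65, -0.71 and -0.74 later (SE 0.14; adjusted p = 1.02e-05, 0.000665, 0.000334 and 0.000197).

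Atp5g3 fell with changes of -0.72, -0.78, -0.83 and -0.77 (SE 0.11; adjusted p from 2.15e-06 to 9.72e-06), and Atp5d fell with changes of -0.74, -0.71, -0.83 and -0.66 (SE 0.22; adjusted p = 0.00663, 0.0105, 0.00334 and 0.017), its T2 call being lost without T2 array 1 and its T8 call without T0 array 1 or 3 or T8 array 1 or 3. The c-ring gene Atp5g2 changed by -0.06 to 0.04 with its 2 probes opposite in sign (0.09 to 0.21 and -0.20 to -0.12). Neither subunit of the catalytic hexamer was called. Atp5b, the catalytic beta subunit, read 13.45, 14.29, 13.50 and 14.66 at T0. It read 13.90, 14.43, 14.24 and 14.63 in T1, 13.47, 13.69, 13.57 and 14.26 in T2, 14.09, 14.34, 14.32 and 13.56 in T4, and 14.13, 13.34, 14.36 and 13.76 in T8. Within T0, T1, T4 and T8 the arrays of session 1 were the lower ones, so the spread followed the scan session. The changes of 0.33, -0.23, 0.11 and -0.07 (SE 0.25) had adjusted p of 0.32, 0.527, 0.794 and 0.864, within session 1 they were 0.42, 0.15, 0.09 and 0.08, and within session 2 they were -0.04, -0.61, -0.22 and -0.22. Atp5a1, the alpha subunit, changed by 0.01, -0.34, -0.18 and -0.26 (SE 0.22; adjusted p 0.248 to 0.977).

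**Figure D3:**
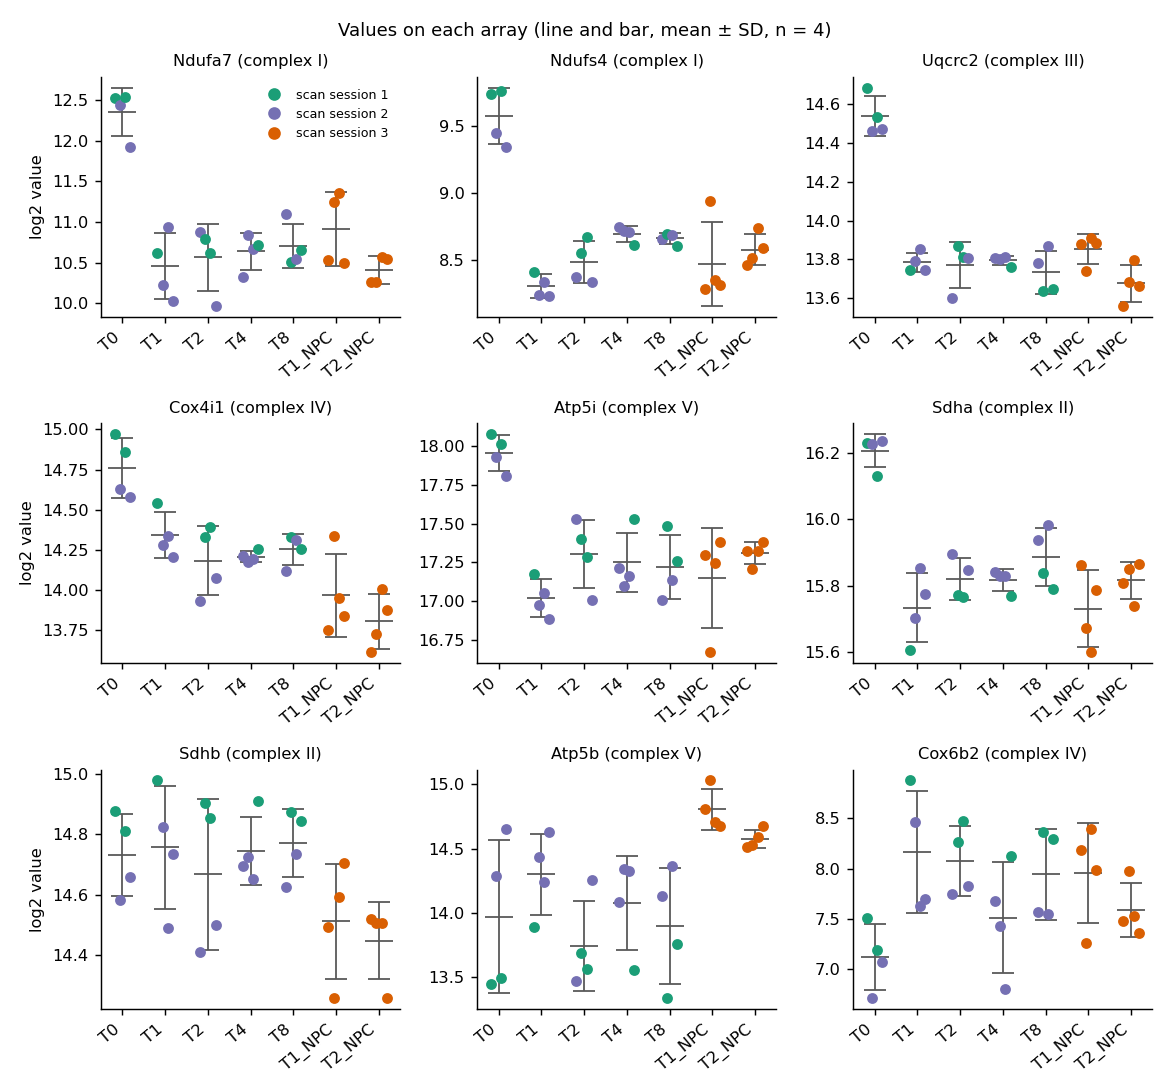
Log2 values (y axes, each on its own scale) of 9 genes on every array by group (x axis), coloured by scan session, with mean and SD of 4 arrays. Ndufa7, Ndufs4, Uqcrc2, Cox4i1, Atp5i and Sdha lie below T0 on all injured arrays, Sdhb overlaps T0 at T1 to T8, Atp5b splits by scan session and Cox6b2 lies above T0 at T1, T2 and T8.

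Of the other members, Atp5s (now Dmac2l) fell with changes of -0.71, -0.46, -0.44 and -0.36 and Atp5sl (now Dmac2) with -0.45, -0.40 and -0.40 at T2, T4 and T8, with -0.22 at T1 (adjusted p = 0.094). The T8 call of Atp5s was lost without T0 array 1 or 3 or T8 array 1. Cox7a2l, which binds complexes III and IV into supercomplexes, changed by -0.02 to -0.08 and was not called.

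No member was called between T1 and T2, T2 and T4 or T4 and T8 by limma, against 1.48%, 0.0761% and 0.0902% of all features, and 2, 4 and 0 members had an unadjusted p under 0.05. The median step was 0.00, -0.01 and 0.02. From T1 to T8, 1 member was called (background 9.87%; 6 at an unadjusted p under 0.05), Cox8b, the heart and skeletal muscle isoform of a small complex IV subunit. With slide or scan session as a fixed block this count was 8 (3 lower and 5 higher) and 9 (3 and 6). Of all 35469 features, 5936 and 6119 were then called from T1 to T8. The steps between neighbouring times still had 0 members called.

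Cox8b, averaged over 3 probes, read 5.02, 5.15, 5.01 and 5.17 at T1 and 5.68, 5.86, 5.56 and 5.88 at T8. All T8 arrays exceeded all T1 arrays, with a difference of 0.66 (SE 0.17; adjusted p = 0.0115). Against T0 it was lower at T1, T2 and T4 (-0.93, -0.89 and -0.57; adjusted p = 7.95e-05, 0.000146 and 0.00963) and not called at T8 (-0.27, adjusted p = 0.22), and without T0 array 1 the T4 call was lost. The probes disagreed: the brightest, A_44_P414273 with a T0 mean of 8.73, changed by -2.43, -1.86, -1.40 and -0.79, A_44_P689395 changed by 0.19, 0.11, 0.29 and 0.24, and A_44_P689394 was above background on 6 arrays only. The summed level of 12 skeletal muscle markers (linear signal divided by 1000) was 5.31 to 8.65 at T0 and 2.20 to 3.76 on the injured arrays, with 4 markers higher and 3 lower at T1, and its part in the Cox8b values was not tested.

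**Figure D4:**
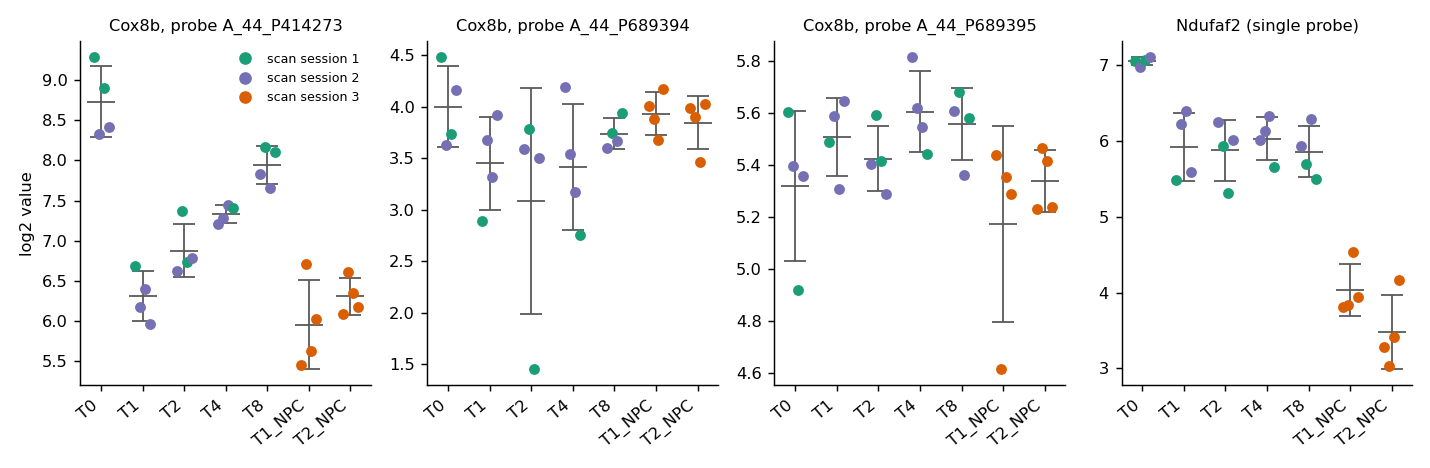
Log2 values (y axes) on every array by group (x axis) for the 3 Cox8b probes and for the single Ndufaf2 probe, coloured by scan session, with mean and SD of 4 arrays. The first Cox8b probe drops from a T0 mean of 8.73 and rises from T1 to T8, the others show no such course, and Ndufaf2 lies between 3.03 and 4.54 on the 8 arrays of transplanted animals.

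Transplantation was compared with the injured group of the same time. The 4 arrays of each transplanted group share a slide of their own, and both groups a scan session that held no other array, so slide, session and transplantation cannot be told apart, and both comparisons reuse the T1 or T2 arrays. The low level of the chain genes was still present: relative to T0, array medians were -0.64 to -0.57 in T1_NPC and -0.69 to -0.52 in T2_NPC. In T1_NPC against T1, 4 members were lower (background 6.46%) and 4 higher (5.45%), with a member median of -0.05 against -0.01 over all features. In T2_NPC against T2, 9 were lower (4.85%) and 1 higher (4.62%), with a median of -0.12 against -0.03 and 60 of 84 members below 0. Leaving out 1 array gave 4 to 5 lower and 1 to 4 higher in T1_NPC (1 higher without T1 array 2 or 3 or T1_NPC array 2). In T2_NPC it gave 4 to 12 lower, with 4 or 5 without T2 array 2 or 3 or T2_NPC array 1, 2 or 3, and 0 to 3 higher. With slide as a random block T2_NPC had 4 lower (2.53% of all features) and 0 higher, with 1623 of 35469 features called either way. On the arrays without label conflict, which keep 2 of T2, it had 31 lower (10.3% of all features) and 5 higher, with 7399 features called either way. No difference between the effects at the 2 transplantation times was called for any member (0 by limma, 2 at an unadjusted p under 0.05, background 0.299%).

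Ndufaf2 was lowest by far in both transplanted groups. Its arrays read 5.49, 6.23, 6.40 and 5.59 at T1 and 3.81, 3.83, 4.54 and 3.95 in T1_NPC. They read 6.26, 5.93, 5.31 and 6.02 at T2 and 3.28, 3.03, 3.41 and 4.17 in T2_NPC. The groups were far apart, and the probe was not well above background on any of the 8 transplanted arrays while it was on all 20 others. By group means the signal was 3.72-fold lower in T1_NPC and 5.31-fold lower in T2_NPC (adjusted p by limma = 3.28e-05 and 1.8e-06). These are estimates and not limits, and on the transplanted arrays they rest on signal that was not well above background.

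Other members lower after transplantation were spread over the complexes. Ndufb2, an accessory subunit of complex I, read 15.46, 15.60, 15.71 and 15.58 at T1 and 15.27, 14.76, 15.11 and 15.20 in T1_NPC, a change of -0.50 (SE 0.09; adjusted p = 0.00118). It read 15.77, 15.57, 15.59 and 15.67 at T2 and 15.24, 15.29, 15.41 and 15.31 in T2_NPC, a change of -0.34 (adjusted p = 0.0245). In both comparisons the groups did not overlap. Cox7c, a small subunit of complex IV, read 9.26, 9.80, 9.70 and 9.15 at T2 and 8.49, 8.53, 8.63 and 8.55 in T2_NPC (-0.93, SE 0.19, adjusted p = 0.00407). All T2_NPC arrays were below all T2 arrays for Cox7c.

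Cox6c1, whose name now stands for a pseudogene record, changed by -0.97 in T1_NPC and -0.80 in T2_NPC (SE 0.25; adjusted p = 0.0128 and 0.0429), and whether its probe also reads Cox6c was not tested. The latter call was lost without any of 7 arrays (T1 array 2, T2 arrays 2 and 3, T4 array 1 and T2_NPC arrays 2, 3 and 4). Atp5h fell by 0.32 in T1_NPC (adjusted p = 0.0134). Also called lower in T2_NPC were Ndufaf3 (-0.48), Cox8a (-0.40), Uqcrh (-0.34) and Sdhc (-0.31), with adjusted p from 0.0237 to 0.0375. Leaving out any of T2 arrays 1, 2 and 3 or T2_NPC arrays 1, 2 and 3 ended the call of Ndufaf3 and of Cox8a, and T2 array 1 or 2 or T2_NPC array 1 or 3 that of Sdhc.

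Higher values were called for Ndufa9, a complex I subunit, which read 13.53, 13.47, 13.39 and 13.44 at T1 and 13.77, 14.23, 13.99 and 13.90 in T1_NPC. All 4 transplanted arrays were higher, with a change of 0.51 (SE 0.09; adjusted p = 0.000748), and in T2_NPC the change of 0.17 was not called (adjusted p = 0.263). Atp5j2 (now Atp5mf) rose by 0.59 and Uqcrfs1 by 0.41 in T1_NPC (adjusted p = 0.0177 and 0.0336). The call of Atp5j2 was lost without T1 array 2 or 3 or T1_NPC array 2, and that of Uqcrfs1 without T1 array 2, 3 or 4 or T1_NPC array 2 or 3. Uqcrq was also called higher there (adjusted p = 0.021) but was not well above background on any T1 or T1_NPC array, so no fold is given. Atp5b read 13.47, 13.69, 13.57 and 14.26 at T2 and 14.51, 14.53, 14.59 and 14.67 in T2_NPC. The transplanted arrays were higher by 0.83 (SE 0.25; adjusted p = 0.04), in a gene whose values also differed between scan sessions. This call was lost when any 1 of the 8 arrays other than T2 array 4 was left out.

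**Figure D5:**
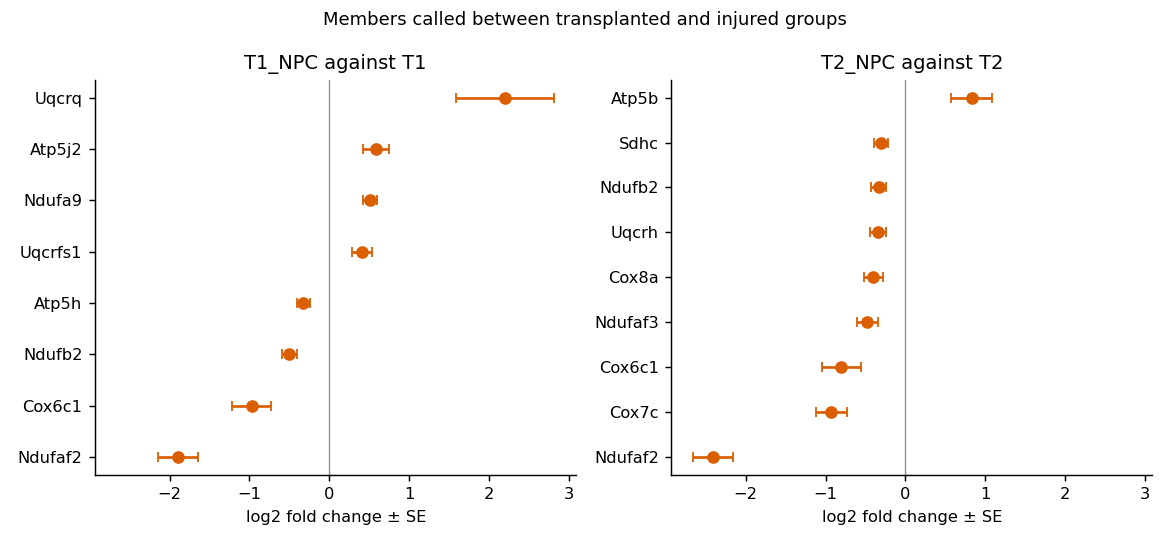
Log2 fold change with its standard error (x axes) of the 8 members called in T1_NPC against T1 and of 9 of the 10 called in T2_NPC against T2. Ndufaf2 is lowest in both, Ndufb2 and Cox6c1 are lower in both, and the Ndufaf2 and Uqcrq points rest on signal that is not well above background.

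Genes around the chain were counted against the same background, 21% to 25.1% of all features lower and 17.5% to 19.1% higher. Cytochrome c (Cycs), the mobile carrier between complexes III and IV, read 14.74 to 14.95 at T0 and 14.11 to 14.24 at T1, and fell with changes of -0.69, -0.79, -0.77 and -0.86 (SE 0.09; adjusted p from 4.56e-08 to 8.51e-07). Among 11 electron carrier and coenzyme Q synthesis genes 7, 6, 4 and 6 were lower and 0, 0, 1 and 1 higher. Coq3, a methyltransferase of coenzyme Q synthesis, fell with changes of -0.94, -0.92, -0.64 and -0.73 (SE 0.14; adjusted p from 5.24e-06 to 0.000615), and Cyct, the testis cytochrome c, was called lower at T1, T2 and T8 but was well above background on 1 of 28 arrays, so no fold is given. Among 19 assembly factors outside the naming rule, such as Cox11 (-0.90 to -1.14) and Ttc19 (-0.96 to -1.21), 11, 10, 11 and 10 were lower and 2, 0, 0 and 0 higher. Of 22 genes of pyruvate dehydrogenase and the TCA cycle 11, 12, 9 and 11 were lower and 3, 1, 3 and 2 higher. Idh3a (-0.85 to -0.99) and Sucla2 (-0.85 to -1.22) fell, while citrate synthase (Cs) was not called against T0 (0.27, -0.02, -0.10 and -0.15).

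Among 20 regulators of mitochondrial biogenesis and mitochondrial DNA expression 7, 6, 6 and 8 were lower (35%, 30%, 30% and 40%) and 5, 2, 2 and 1 higher (25%, 10%, 10% and 5%). Ppargc1a, the coactivator PGC-1alpha, read 7.51 to 8.16 at T0 and 6.20 to 7.11 on the injured arrays without cells, with no overlap, and fell with changes of -1.35, -1.57, -1.06 and -1.13 (SE 0.26; adjusted p = 0.000172, 3.37e-05, 0.00227 and 0.00113). Nrf1, whose motif was searched above, rose by 1.10, 0.75, 0.57 and 0.69 (SE 0.13; adjusted p from 1.77e-07 to 0.000742). Esrra fell at each time (-0.37 to -0.53), as did Sirt3 (-0.85 to -1.23), and Tfam changed by -0.11 to 0.07 and was not called. In the 16 carriers, porins and uncoupling proteins 9 were lower at each time and 3, 1, 1 and 1 higher. Ckmt1, mitochondrial creatine kinase, fell (-2.31 to -2.49), and Ucp2, abundant in macrophages, rose by 3.28, 2.31, 2.21 and 2.23.

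Markers of cell types moved with the same comparisons. Of 14 neuronal markers 13, 14, 14 and 13 were lower (median -1.59, -1.71, -1.57 and -1.69), and their summed level (linear signal divided by 1000, as below) was 407 to 539 at T0 and 109 to 218 on the injured arrays without cells, Snap25 having the largest mean change (-2.51). Oligodendrocyte markers were lower for 7, 8, 6 and 8 of 10, Ugt8 most (-1.79). All 14 microglia and macrophage markers were higher at each time, their sum rising from 78.3 to 97.2 at T0 to 504 to 818. T cell markers (7, 6, 6 and 7 of 7) and Schwann cell markers (5 of 5) were higher as well. Other types were mixed. Of 8 astrocyte markers 4, 2, 1 and 1 were lower and 1, 1, 2 and 1 higher. Their sum was 156 to 169 at T0, 88.6 to 114 at T1 and 161 to 179 at T8. Of 8 pericyte markers 1, 2, 3 and 2 were lower and 3, 2, 2 and 3 higher, and of 7 endothelial markers 1, 0, 1 and 0 were lower and 3, 1, 1 and 2 higher. The part of these shifts in the decrease of the 84 members was not tested. Between transplanted and injured groups 0 of 14 neuronal markers were called, and the summed level of 8 pericyte markers was 80.7 to 85.8 at T1 and 33.2 to 52.0 in T1_NPC, with 1 of 8 called lower. In T2_NPC the pericyte sum was 35.0 to 40.3 against 74.8 to 79.9 at T2, with 1 of 8 lower. The oligodendrocyte sum was 373 to 402 against 264 to 331, with 2 of 10 higher, and that of 3 red blood cell markers 5.32 to 23.2 against 1.85 to 4.10, with 1 higher. The part of these shifts in the members called after transplantation was not tested.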

How the data were processed

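Total RNA of 28 cord segments was labelled with Cy3 and hybridised to single-colour Agilent whole rat genome arrays. The authors deposited a table of log2 values, quantile normalized across arrays, and, per the file headers, the scanner outputs with processed and raw intensity per spot. Gene names came from the 8 outputs that carry them, joined by spot number.

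In the log2 table, 43379 spots other than controls gave 41012 probes and then 35469 gene names by averaging. limma 3.58.1 (R 4.3.3) fitted 1 mean per group to all 28 arrays with empirical Bayes moderation, as in the study's own approach. Features passed where the p-value, adjusted by Benjamini-Hochberg, was under 0.05. The fit was tried on simulated data with independent noise for each gene. No slide or session effect was simulated, so that run cannot judge one. Isoform pairs were compared with exact permutation tests (scipy 1.17.1).

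Scanner outputs were matched to table columns by Spearman rank correlation, and slide and scan session follow that match. Between 74.5% and 82.7% of spots per array were well above background and 0 were saturated. The number of arrays limits the precision. P-values measure the spread between these samples.

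Members and lists were chosen with earlier results of these data known. Named members are all of complex II, the 3 lowest and 3 highest by mean change over the 4 time points in each other class, isoform pairs, called members between time points or after transplantation (the 5 largest) and the rest of such counts, and members whose promoters are printed, the last 2 kinds chosen after their values were seen. In the pathway lists, the 2 called genes with the largest mean change and 7 regulators and carriers fixed by name were named, of which Cyc1 is not on the array, and of the markers the one with the largest mean change for neurons, oligodendrocytes and macrophages. Classes follow gene names, so Ndufa4, now assigned to complex IV, counts with complex I, and Atp5sl and Cox7a2l, known in chain assembly, with the others. All 84 names were matched to RefSeq (76 by accession, 5 by symbol, 3 by synonym), which renames 20. One member is counted but not reported here by name.

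Alternatives were the scanner signal matched by rank or as deposited, 75th percentile scaling, normexp background correction (offset 50) on median signals (the planned mean signals were not in all outputs), filters on dim and outlier spots, the brightest probe, slide, session or replicate blocks, other variance models and sample sets, a 2-fold threshold, leaving out each array, and, chosen after seeing the data, each scan session alone. Replicate numbers name animals and do not pair groups.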

Additional observations from a re-analysis of the deposited data

Results flagged for a closer look

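In 329 sets of 4 arrays, 16 values (4.86%, where chance gives about 1 in 20) stood apart from the other 3 arrays of their group. At T0, Ndufa7 in array 4 was 11.92 (others 12.44 to 12.54), Sdha in array 3 was 16.13 (16.23 to 16.24) and Cox8c in array 4 was 2.73 (1.32 to 1.49). At T1, Cox4i2 and Cox7b in array 1 were 10.69 (10.26 to 10.27) and 14.21 (13.73 to 13.76), Cox6a2 in array 3 was 9.02 (9.69 to 9.73) and Uqcrq in array 4 was 2.34 (1.34 to 1.42). At T2, Uqcrq in array 4 was 2.14 (1.32 to 1.39). At T4, Ndufa11 and Sdha in array 4 were 12.25 (11.40 to 11.55) and 15.77 (15.83 to 15.84). At T8, Cox7a2 and Cox8a in array 3 were 15.28 (15.35 to 15.36) and 16.54 (16.70 to 16.72). In T1_NPC, array 2 held Ndufs4 at 8.94 (8.29 to 8.35) and Uqcrc2 at 13.74 (13.88 to 13.91). In T2_NPC, array 4 held Cox8a at 16.30 (16.17 to 16.18) and Sdhb at 14.26 (14.51 to 14.52).

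T1 array 1 and T4 array 4 are the only arrays of scan session 1 in their groups. The Uqcrq and Cox8c values lie on probes that were not well above background on those arrays.

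The change of Cox8b from T0 differed between T1 and T8 by 0.66 (adjusted p = 0.0115), and the difference was tested directly. It rests on 1 of 3 probes.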

How the results depend on the processing

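With scanner signal matched by rank, all 137 named calls kept their direction and threshold. With outputs under their deposited samples, 0 members were called lower or higher at T1, T2 and T8, lower at T4, between T8 and T1 or after either transplantation, and 9 named calls reversed (Ndufaf2 0.14 and Uqcr 0.0175 at T2, Ndufaf1 0.0522 at T4, and in T1_NPC Atp5j2 -0.24, Cox6c1 0.23, Ndufa9 -0.22, Ndufaf2 0.60, Uqcrfs1 -0.39 and Uqcrq -0.50), as did Cox6a2 minus Cox6a1 at T2 (-0.15) and T4 (-0.37). The causes of all changes given here were not tested. With the 12 arrays without conflict, 38 members were lower and 1 higher at T4, 2 higher at T8, 1 called each from T2 to T4 and T4 to T8, and 31 lower and 5 higher in T2_NPC (no T1_NPC array remains). With a 2-fold threshold 5, 5, 3 and 3 were lower, 0 higher at T2 and T8, 0 changed from T1 to T8, and 1 lower and 1 higher were left in T1_NPC and 1 and 0 in T2_NPC.

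In session 1 alone, 42 were lower at T1 and 32 at T4, 1 and 2 higher at T4 and T8, 1 called each from T2 to T4 and T4 to T8 and 0 from T1 to T8. In session 2 alone, 0 were higher at T2 and T8 and 2 called from T1 to T8. With slide or session as a fixed block, 2 were higher at T1, 1 at T4, and 8 and 9 called from T1 to T8 (5936 and 6119 of all 35469 features). That last count was 3 with 75th percentile scaling, 2 with normexp, 2 with the brightest probe, 2 with only the compared groups and 3 with the time course alone. Of all features, 3059 to 4210 were called in these 5 settings. The 75th percentile scaling shifted the median of all features by -0.18 at T1, 0.12 from T1 to T2, 0.16 from T1 to T8, 0.12 in T1_NPC and 0.14 in the difference of transplantation effects, and by under 0.1 elsewhere, and the members' medians at T1 to T8 were then -0.66, -0.60, -0.67 and -0.58.

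After transplantation, counts lower and higher in T2_NPC were 14 and 0 with 75th percentile scaling (5.27% of all features lower). They were 4 and 0 with slide as a random block (2.53%) and 4 and 3 with the compared groups alone (3.5%). In T2_NPC, 2 and 3 were higher without dim probes and with trended, robust moderation. In T1_NPC, normexp gave 10 lower (5.75%), the compared groups alone 1 lower (1.77%) and 1 higher, and the random slide block 2 higher. With the brightest probe, 11 of 18 isoform differences passed (lowest adjusted p = 0.0468), although only the Cox8b values differ in that run.

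With a replicate block, 0 members were higher at T8 and in T2_NPC, and no other count moved by over 1.5 times. The numbers name animals only: residual correlations of same-number arrays ran from -0.34 to 0.30 (median 0.00) and 5 of 28 arrays correlated best with their own number.

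Leaving out 1 array gave 58 to 68, 58 to 67, 56 to 65 and 49 to 62 members lower at T1, T2, T4 and T8, 1 to 1, 0 to 1, 0 to 0 and 0 to 1 higher, 0 called between neighbouring times or for the difference of transplantation effects, 1 to 3 from T1 to T8 (3 and 2 without T1_NPC arrays 2 and 4), and 0 isoform differences. T1_NPC had 4 to 5 lower and 1 to 4 higher (1 without T1 array 2 or 3 or T1_NPC array 2). T2_NPC had 4 to 12 lower (4 or 5 without T2 array 2 or 3 or T2_NPC array 1, 2 or 3) and 0 to 3 higher, the 1 call being lost without 7 of its 8 arrays. Of 3836 refits of named calls 145 lost the call and 0 reversed.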
